A study of Rattus norvegicus with 18 samples.

Results

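The genes described here build the blood-brain barrier of the rat cerebral cortex, and their RNA was followed after subarachnoid hemorrhage (SAH), a bleed into the space around the brain. They are 9 of the 30735 genes in the count table and were taken by symbol as Cldn5, Ocln and Tjp1 of the tight junction, the transporters Mfsd2a, Slc2a1, Abcb1a and Slco1a4, and Plvap and Cav1, which belong to the routes of leak through the endothelial cell. All 9 passed the filter on low counts and were among the 18444 genes tested. RNA was sequenced from 18 adult Sprague Dawley rats, with 6 rats and 6 libraries in each group. The SAH 1d and SAH 7d groups were sampled 1 and 7 days after an artery at the base of the brain was perforated from inside with a filament, and the sham group had that surgery without the perforation. The time after surgery at which sham rats were sampled and the sex of the rats were not stated. The study's methods give the tissue as the whole cortex of the operated side, rinsed of blood, whereas the deposited descriptions name cortex of both sides and mice. Rat gene identifiers are used in the table.

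In brain capillaries, endothelial cells are sealed to each other by tight junctions and carry out little transport by vesicles, so that nutrients must pass through transporters. Claudin-5 (Cldn5) forms the seal between neighbouring cells, occludin (Ocln) spans the membrane beside it, and ZO-1 (Tjp1) is the scaffold that ties junction proteins to actin. Slc2a1 encodes the glucose transporter GLUT1, Mfsd2a takes up lysolipids that carry docosahexaenoic acid and keeps vesicle transport low, Abcb1a encodes the efflux pump P-glycoprotein and Slco1a4 an organic anion transporter. Cav1 is the coat protein of caveolae. Plvap forms the diaphragms of fenestrated vessels and is scarce in healthy brain capillaries.

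In the whole cortex, fewer cells of a type and less RNA per cell cannot be told apart. Tjp1, Slc2a1, Cav1 and Ocln are also made by cells other than endothelium, so that a change in one of them was not assigned to a cell type. Total counts per library lay between 27270026 and 38271014. The 14 endothelial reference markers in the table, such as Cdh5, Flt1 and Tie1, were detected in all 18 libraries, with a summed level of 266 to 448 CPM in sham, 383 to 816 CPM in SAH 1d and 315 to 773 CPM in SAH 7d. CPM are counts per 1e+06 counts of the library, after normalization for library composition. SAH 1d-3 had the highest endothelial sum of its group, at 816 CPM. It also had 537 CPM of monocyte and macrophage markers, against 90.8 to 134 CPM in the other SAH 1d libraries. Its neutrophil markers summed to 59.7 CPM, against 6.44 to 14.2 CPM in those libraries. SAH 7d-5 had 773 CPM of endothelial markers and 8764 CPM of 7 monocyte and macrophage markers, against 97.8 to 291 CPM of the latter in the other SAH 7d libraries. Its neuron markers summed to 2578 CPM, against 7268 to 9547 CPM in those libraries. It had 5316 CPM of meningeal fibroblast markers (462 to 772 CPM in the others) and 2599 CPM of microglia markers (349 to 1104 CPM). Markers of the choroid plexus, the tissue that makes cerebrospinal fluid, summed to 769 CPM in SAH 1d-4 and 1117 CPM in SAH 1d-6 and to 71.3 CPM or less in the other 16 libraries. For the tests of the members, the values below are given with and without these libraries where they changed a result. The gene lists were recounted without SAH 1d-3 only, so the part of SAH 1d-4 and SAH 1d-6 in the lists was not tested.

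Promoters were found in RefSeq for 8 of the 9 genes, on build GRCr8, with 9 promoters in all because Cav1 has a pair. Mfsd2a had no entry. The 250 bases before the start are printed 5′ to 3′ on the strand of the gene for Slc2a1 and Tjp1, which were higher at SAH 1d. They are also printed for Ocln and Slco1a4, the members with the highest Spearman's correlation with each other over the libraries. Capitals mark matches on either strand to the motifs searched.
Slc2a1, chr5:138002272-138002521, strand plus: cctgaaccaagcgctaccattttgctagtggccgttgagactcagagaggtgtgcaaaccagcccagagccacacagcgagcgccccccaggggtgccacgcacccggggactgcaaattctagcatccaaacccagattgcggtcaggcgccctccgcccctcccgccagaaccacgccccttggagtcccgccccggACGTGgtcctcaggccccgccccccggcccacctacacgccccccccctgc
Tjp1, chr1:128325361-128325610, strand minus: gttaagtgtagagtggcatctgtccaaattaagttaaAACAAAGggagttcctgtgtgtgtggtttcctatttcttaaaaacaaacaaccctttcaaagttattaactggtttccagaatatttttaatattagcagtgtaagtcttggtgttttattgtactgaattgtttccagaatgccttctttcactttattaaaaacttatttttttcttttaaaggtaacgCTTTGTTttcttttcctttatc
Ocln, chr2:33441199-33441448, strand minus: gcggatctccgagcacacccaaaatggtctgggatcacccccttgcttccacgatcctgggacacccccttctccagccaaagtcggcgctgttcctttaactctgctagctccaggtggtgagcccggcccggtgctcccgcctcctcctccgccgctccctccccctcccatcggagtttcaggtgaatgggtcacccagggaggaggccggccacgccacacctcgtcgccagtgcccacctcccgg
Slco1a4, chr4:176495847-176496096, strand minus: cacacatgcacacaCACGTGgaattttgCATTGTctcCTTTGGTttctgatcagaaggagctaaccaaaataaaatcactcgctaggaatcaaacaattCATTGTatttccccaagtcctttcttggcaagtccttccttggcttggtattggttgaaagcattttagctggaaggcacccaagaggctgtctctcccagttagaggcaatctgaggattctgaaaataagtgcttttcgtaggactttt
The letters ACGTG, the core of the element bound by hypoxia inducible factors, occurred in the Slc2a1 promoter with the match beginning 51 bases before the start, and also in those of Slco1a4 and Cav1. These letters were present in 16.6% of 33469 promoters. The letters CTTTGNT, the TCF/LEF motif of Wnt signaling, occurred in the promoters of Tjp1 and Slco1a4 and in 16.4% of all promoters. The SOX letters ACAANG, found in 36.9% of all promoters, occurred in the same pair of genes. In Tjp1 each of them lies inside a TCF/LEF match. The TCF/LEF letters found there, CTTTGTT, hold the SOX letters as read on the other strand, so these are not separate sites. The AP-1 letters TGANTCA occurred in Abcb1a and in 6.34% of all promoters. No member promoter held TTCNNNGAA for STAT factors (7.67% of all) or CCGGAAG for ETS factors (7.27% of all), and none of the 6 motifs occurred in the windows of Cldn5, Ocln and Plvap. A match shows only that the letters are present.

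Levels were compared between genes in FPKM, which divides by transcript length. In sham cortex Slc2a1 was the most abundant at a mean of 43.7 ± 10.6 FPKM (SD, n = 6), and Slco1a4 followed at 35.4 ± 9.26 FPKM. The ranges of this pair overlapped, and both lay above the range of Tjp1. Tjp1 at 22.1 ± 2.02 FPKM and Cav1 at 20.5 ± 4.67 FPKM overlapped each other as well. Abcb1a stood at 13.8 ± 2.19 FPKM, Mfsd2a at 9.82 ± 1.78 FPKM and Ocln at 6.10 ± 1.33 FPKM. From Cav1 to Ocln, each gene overlapped the next one down. Plvap was the lowest of the members detected in all libraries, at 0.705 ± 0.219 FPKM. Cldn5, normally abundant in brain endothelium, was listed at 0 in 3 sham libraries and at 2.16, 4.31 and 8.13 FPKM in the others.

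**Figure D1:**
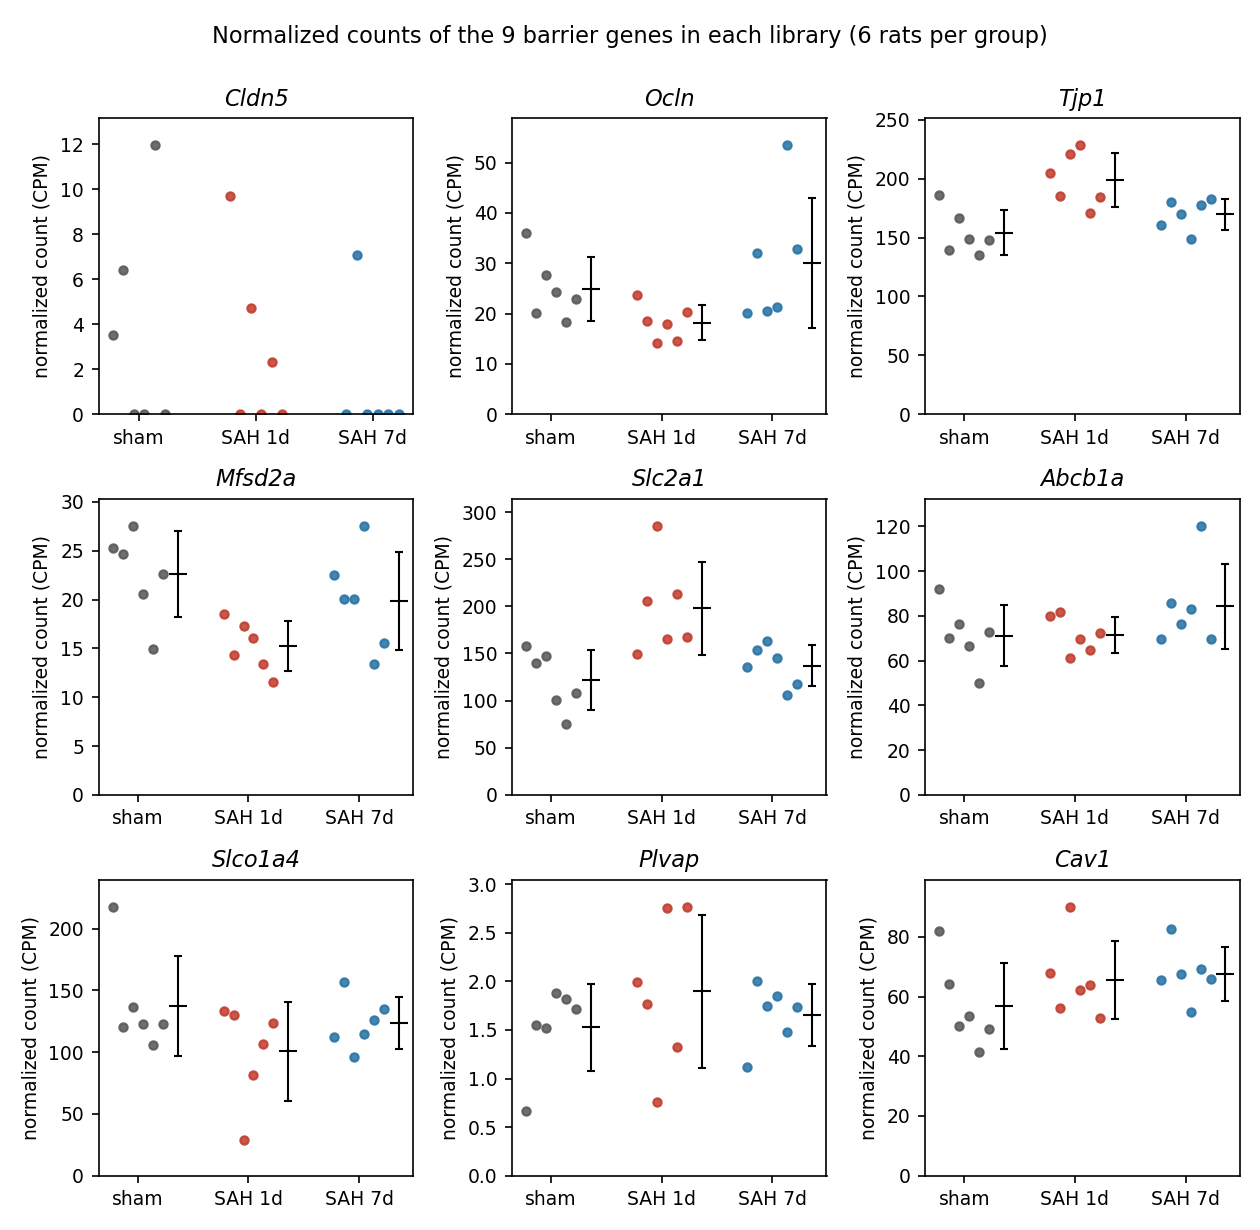
Normalized counts (CPM, linear axis from 0) of the 9 genes, with 1 point per library and, beside each group, the mean and SD of its 6 libraries, left out for Cldn5. Slc2a1 and Tjp1 sit higher and Mfsd2a lower in SAH 1d, Cldn5 is at 0 in 11 of 18 libraries, and single libraries stand away from their group for Slco1a4, Abcb1a and Plvap.

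At SAH 1d the barrier genes did not move as a block. Slc2a1 and Tjp1 rose and Mfsd2a fell, while the other 6 did not pass the test, so that 3 of 9 genes (33.3%) changed against 25.4% of all tested genes. In the direction of an increase the background was 14.9%, and in that of a decrease 10.5%. None of the 3 changes reached 2-fold, which 6.64% of all genes did at the same threshold. The median log2 fold change of the members was 0.0083, next to 0.0086 over all genes, and it was 0.11 without Cldn5. Changes were tested on counts with edgeR's quasi-likelihood test, with p-values adjusted over all genes by the Benjamini-Hochberg method and called under 0.05.

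Slc2a1, the glucose transporter, had 75.0, 124 and 158 CPM as lowest, median and highest of the sham libraries and 150, 187 and 285 CPM in SAH 1d. All 6 SAH 1d libraries exceeded the sham mean and 5 exceeded every sham library, SAH 1d-1 being the exception, so the groups overlapped narrowly. The log2 fold change was 0.71 (SE 0.19), a 1.63-fold increase, with an adjusted p of 0.0183 in edgeR. At SAH 7d the values were 106, 141 and 163 CPM, within or just above the sham range. The difference from sham was 0.17 on the log2 scale (SE 0.17) and was not called, with an adjusted p of 0.586 in edgeR. From SAH 1d to SAH 7d Slc2a1 had a log2 fold change of -0.54 (SE 0.16), with an unadjusted p of 0.00602 and an adjusted p of 0.138 in edgeR, which did not pass.

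Tjp1, the ZO-1 scaffold, had 136, 148 and 187 CPM in sham and 171, 195 and 229 CPM in SAH 1d. Sham-1, the highest sham library, overlapped the 3 lowest libraries of SAH 1d, and the other 3 lay above every sham library. The log2 fold change of 0.37 (SE 0.10), or 1.29-fold, had an adjusted p of 0.0147 in edgeR. At SAH 7d the values were 149, 174 and 183 CPM, inside the sham range. The log2 fold change from sham to SAH 7d was 0.15 (SE 0.089, adjusted p = 0.416 in edgeR).

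Mfsd2a, the lysolipid transporter, moved the other way. It had 14.95, 23.7 and 27.5 CPM in sham and 11.6, 15.2 and 18.5 CPM in SAH 1d. All 6 SAH 1d libraries were under the sham mean, and 3 of them were under every sham library, of which sham-5 was the lowest. The log2 fold change was -0.57 (SE 0.15), a 1.48-fold decrease, with an adjusted p of 0.0159 in edgeR. Without SAH 1d-4 and SAH 1d-6, the libraries high in choroid plexus markers, the change was -0.50 with an adjusted p of 0.0547 (0.00256 to 0.0606 over all alternatives), so the call was lost with 4 libraries in the group. At SAH 7d Mfsd2a spread over 13.4, 20.1 and 27.6 CPM and was not called against sham (log2 fold change -0.18, SE 0.18, adjusted p = 0.585 in edgeR).

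Slc2a1 and Mfsd2a are both transporters of brain endothelium, although Slc2a1 is also made by other cells. Their ratio was taken within each library, a choice made after their values were seen. The ratio of Slc2a1 to Mfsd2a FPKM was 3.96, 4.30 and 5.18 as lowest, median and highest in sham, 6.71, 11.9 and 13.6 in SAH 1d, and 4.38, 6.30 and 6.72 in SAH 7d. Every SAH 1d library lay above every sham library, whereas SAH 7d overlapped both groups. Because a gene called higher was set over a gene called lower, separation at SAH 1d was likely beforehand. It is no separate evidence for those calls. A ratio within a library does not depend on how libraries are scaled, and it shows unequal change only.

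**Figure D2:**
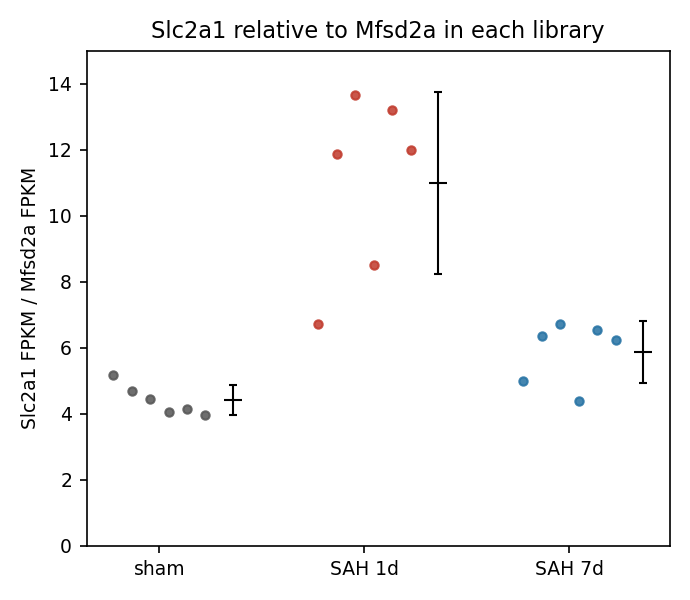
Ratio of Slc2a1 to Mfsd2a FPKM in each library (linear axis from 0), with the mean and SD of the 6 libraries beside each group. The pair was chosen after its values were seen. Sham lies between 3.96 and 5.18 and SAH 1d between 6.71 and 13.6 without overlap, while SAH 7d spans 4.38 to 6.72.

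On the FPKM scale Slc2a1 and Tjp1 did separate SAH 1d from sham. Slc2a1 had 28.1 to 53.9 FPKM in sham and 59.2 to 109 FPKM in SAH 1d, and Tjp1 had 20.2 to 25.2 FPKM in sham and 25.9 to 35.0 FPKM in SAH 1d. Higher values without overlap were found for 2 of 9 members and for 13% of all genes on this scale. Lower values without overlap were found for 1.92% of all genes, so separation in FPKM leaned upward over all genes. On the CPM scale, with normalization for library composition, 0 of 9 members were separated in either direction. Of all genes, 7.89% were higher and 5.41% lower without overlap on that scale, or 13.3% in either direction.

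Ocln, the other junction protein of the membrane, had 18.4, 23.6 and 36.01 CPM in sham and 14.2, 18.3 and 23.7 CPM in SAH 1d. All 6 SAH 1d libraries were under the sham mean, but the ranges overlapped and the log2 fold change of -0.45 (SE 0.17) had an adjusted p of 0.0676 in edgeR. Over the other settings this p ranged from 0.0358 to 0.241. At SAH 7d Ocln had 20.1, 26.7 and 53.5 CPM, the last in SAH 7d-5. Against SAH 1d it had a log2 fold change of 0.72 (SE 0.25) with an unadjusted p of 0.0120 and an adjusted p of 0.182 in edgeR, and without SAH 7d-5 the change was 0.47.

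Abcb1a, the drug efflux pump, had 50.1, 71.5 and 91.9 CPM in sham and 61.3, 71.01 and 81.6 CPM in SAH 1d. The log2 fold change at SAH 1d was 0.0083 (SE 0.12, adjusted p = 0.968 in edgeR), and the SAH 1d values lay inside the sham range. At SAH 7d 5 libraries lay between 69.8 and 85.6 CPM and SAH 7d-5 at 120 CPM. The near-identical copy Abcb1b was not analysed here, and how reads common to both copies were counted is not given in the sources used here, so the Abcb1a level is uncertain to that extent.

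Slco1a4, the organic anion transporter, had 105, 123 and 218 CPM in sham, the highest in sham-1. In SAH 1d it had 28.8 CPM in SAH 1d-3, 81.2 CPM in SAH 1d-4 and 106 to 133 CPM in the other 4 libraries. SAH 1d-3 and SAH 1d-4 were under every sham library and the others overlapped. The log2 fold change was -0.45 (SE 0.30, adjusted p = 0.280 in edgeR), and it was -0.26 without SAH 1d-3. SAH 1d-3 thus had the lowest Slco1a4 together with the highest Slc2a1 (285 CPM), Cav1 (90.2 CPM) and endothelial sum of its group. Reads of the related gene Slco1a2 were few outside SAH 1d-4 and SAH 1d-6, where it had 224 and 522 counts, against 26 or fewer in the other 16 libraries.

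Cav1 and Plvap, the genes of vesicle passage and fenestration, were not called in any comparison. Cav1 had 41.4, 51.9 and 82.0 CPM in sham, 52.8, 63.2 and 90.2 CPM in SAH 1d, and 54.7, 66.9 and 82.6 CPM in SAH 7d. The groups overlapped widely, with a log2 fold change at SAH 1d of 0.21 (SE 0.17, adjusted p = 0.367 in edgeR). Plvap had 0.666, 1.64 and 1.88 CPM in sham, 0.761, 1.88 and 2.77 CPM in SAH 1d and 1.11, 1.74 and 2.003 CPM in SAH 7d. Its libraries held 20 to 90 counts, which limits the precision of its fold changes. Its 2 highest libraries were SAH 1d-4 and SAH 1d-6, at 2.76 and 2.77 CPM, the same libraries that held most choroid plexus RNA, a tissue with fenestrated vessels. The part of that tissue in the Plvap level was not tested. With all libraries the log2 fold change at SAH 1d was 0.31 (SE 0.32, adjusted p = 0.509 in edgeR), and without that pair of libraries it was -0.063.

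Cldn5 could not be read as a level. It had 0 counts in 11 of the 18 libraries and 66 to 362 counts in the other 7, with none in between. In sham, sham-1, sham-2 and sham-5 had 106, 186 and 362 counts. In SAH 1d, SAH 1d-1, SAH 1d-3 and SAH 1d-5 had 322, 186 and 66 counts, and at SAH 7d only SAH 7d-2 had any, at 234 counts. Among 27396 genes with a count in any library, 20 had this pattern of either 0 or at least 50 counts. No endothelial reference marker was at 0 in any library. The gene next to Cldn5 in the order of RefSeq genes, Cdc45, a DNA replication factor, had 46.2 to 98.7 CPM and a sham median of 73.4 CPM. The sham medians of the replication genes Mcm2 to Mcm7, which proliferating cells express together with Cdc45, were 1.23 to 18.4 CPM. Its median was 75.7 CPM in the 7 libraries with Cldn5 counts and 72.7 CPM in the 11 without. Whether reads of Cldn5 were assigned to its neighbour was not tested. The Cldn5 log2 fold changes of -0.38 (SE 1.44), -1.61 (SE 1.76) and -1.24 (SE 1.76) for SAH 1d versus sham, SAH 7d versus sham and SAH 7d versus SAH 1d therefore carry no reading of claudin-5.

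**Figure D3:**
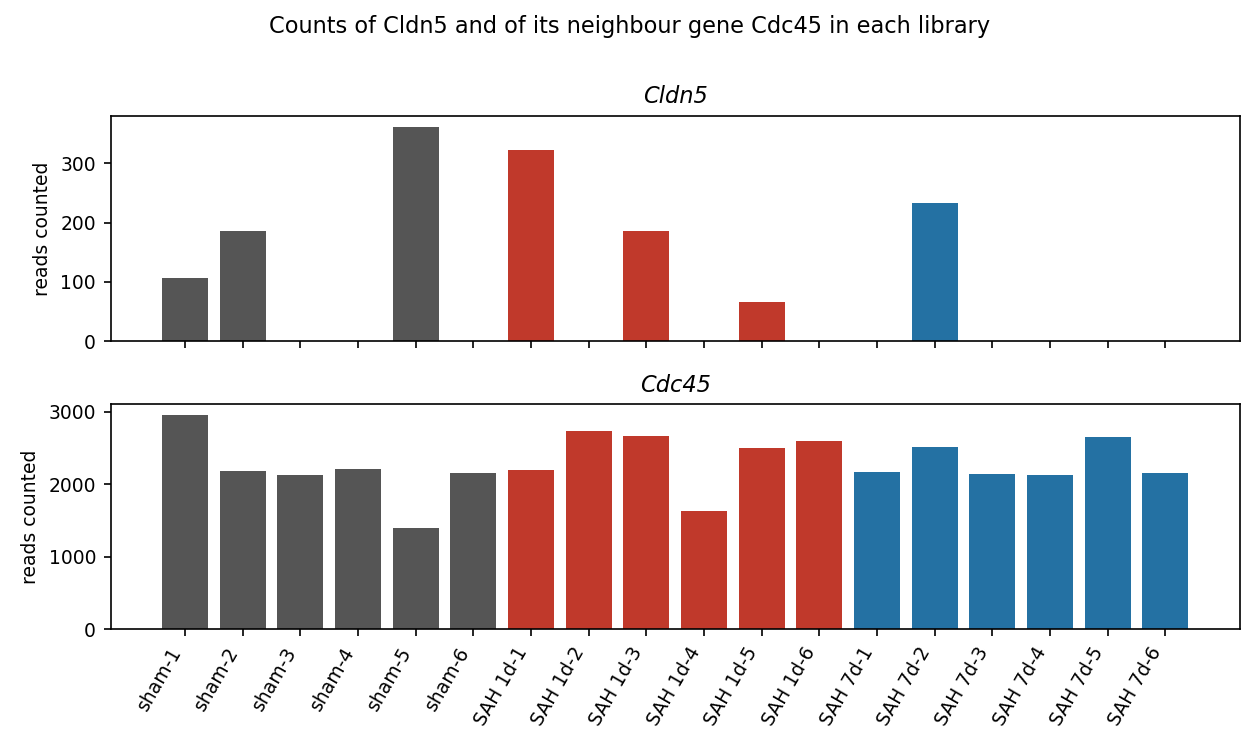
Reads counted for Cldn5 (top) and for its neighbour Cdc45 (bottom) in each of the 18 libraries, on linear axes from 0 with different scales, coloured by group. Cldn5 has bars in 7 libraries and none in 11, whereas Cdc45 is present in all.

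At SAH 7d no member differed from sham in edgeR, and no gene at all was called (0% of 18444). At an unadjusted p under 0.05 the numbers were 0 of 9 members and 15.4% of all genes, and DESeq2 called 0 members and 459 of 18444 genes. The members' median log2 fold change was 0.15 against -0.0039 over all genes, and Ocln, at 0.28, had 0.038 without SAH 7d-5. Between SAH 7d and SAH 1d, 0 of 9 members and 1.37% of all genes were called in edgeR, and 3 members, Slc2a1, Ocln and Tjp1, had an unadjusted p under 0.05, against 14.7% of all genes. At SAH 1d versus sham the same threshold held for 4 members and 38.8% of all genes. The comparisons of SAH 1d and of SAH 7d with sham use the same sham libraries.

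**Figure D4:**
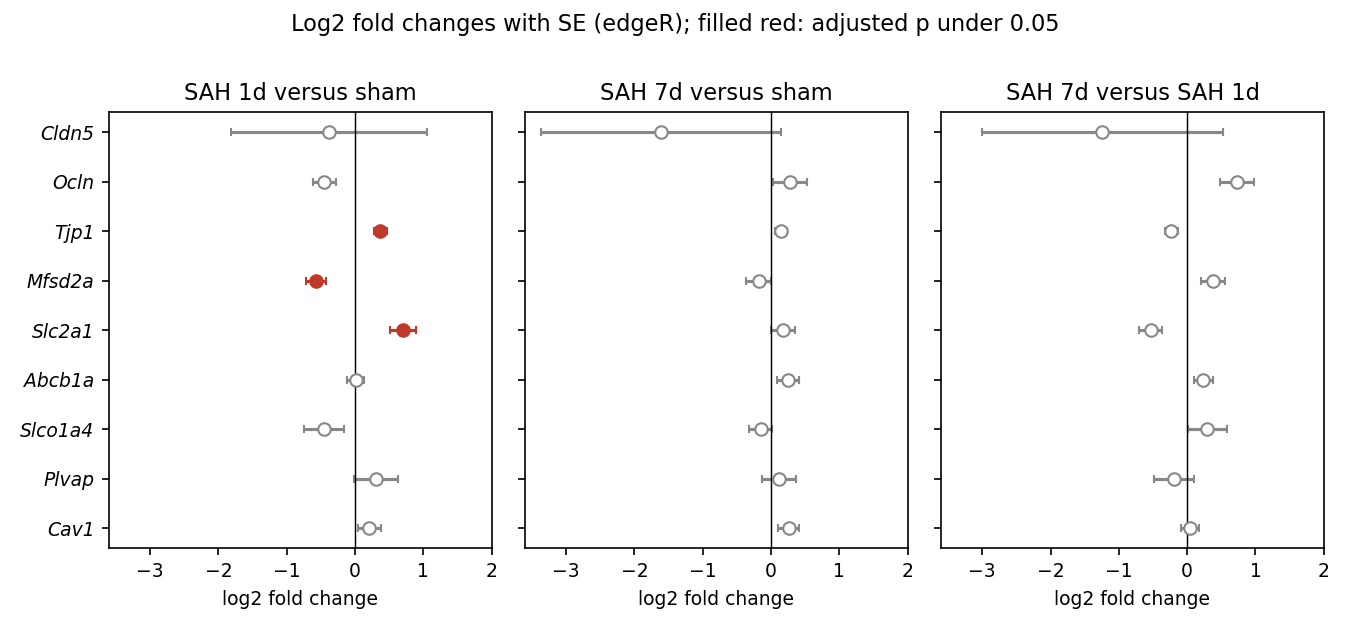
Log2 fold changes of the 9 genes in the 3 comparisons, with bars for the SE, which was derived from edgeR's fold change and F statistic. Filled red points are the 3 genes called at SAH 1d versus sham, Slc2a1 at 0.71, Tjp1 at 0.37 and Mfsd2a at -0.57, and open grey points were not called.

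Read against endothelial RNA rather than all RNA, the same data looked different. When libraries were scaled to the geometric mean of the 14 endothelial markers, the median of all genes at SAH 1d moved to -0.36 and 2512 of 18444 genes (13.6%) were called, next to 2 of 9 members. Slc2a1 (0.32, adjusted p = 0.196) and Tjp1 (0.016, adjusted p = 0.955) were then no longer called in edgeR, and Mfsd2a (-0.92, adjusted p = 0.0109) and Ocln (-0.73, adjusted p = 0.0456) were lower. Without SAH 1d-3 this scaling called 3 of 9 members, all lower and with Slco1a4 added, and 23.4% of all genes in either direction. The share of all genes called lower was not counted. With all libraries the median of -0.36 shows that this scaling moved genes down in general. Relative to that median, Slc2a1 stood at 0.67, Tjp1 at 0.37, Mfsd2a at -0.56 and Ocln at -0.37. Subtracting the median largely undoes the scaling, so these values lie near the unscaled ones by construction. They are no separate evidence for the unscaled changes. Among the endothelial markers themselves 3 rose and 1 fell at SAH 1d, or 4 of 14 next to 25.4% of all genes, and their median log2 fold change was 0.45. Without SAH 1d-3, the library with the highest endothelial sum, the counts were again 3 and 1 and the median was 0.17. Vwf rose by 1.26 (46.6 ± 10.5 to 111 ± 13.3 CPM, SD, n = 6), Cdh5 by 1.01 and Esam by 0.88, whereas Cd34 had a log2 fold change of -0.61. Without SAH 1d-3 these changes were 1.29, 0.72, 0.50 and -0.58.

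The genes that work beside the members were taken as lists, to be read against the 25.4% of all genes called at SAH 1d, 14.9% higher and 10.5% lower. Each list was also counted without SAH 1d-3, a choice made after seeing the data, where 28.5% of all genes were called, 15.4% higher and 13% lower. Of 16 other junction genes tested, 5 rose and 1 fell at SAH 1d (median log2 fold change 0.25), and the same numbers held without SAH 1d-3. Cldn1, a claudin not typical of the mature barrier, rose by 1.40 (SE 0.44, adjusted p = 0.0345 in edgeR) from 1.72 ± 1.27 to 4.52 ± 2.35 CPM (SD, n = 6). VE-cadherin (Cdh5), which joins endothelial cells below the tight junction, rose by 1.01, and the adhesion molecule Esam by 0.88, Cdh5 and Esam being endothelial markers as well. Without SAH 1d-3 the rise was 0.72 for Cdh5 and 0.50 for Esam, both still called in edgeR. In SAH 1d-3 they had 84.5 and 80.7 CPM, against 31.0 to 49.8 and 22.0 to 32.0 CPM in the other SAH 1d libraries. Ctnna1, which links cadherins to actin, rose by 0.41, and the scaffold Magi1 fell by 0.44. At SAH 7d none was called against sham, and 1 of the 16, not named here, was lower than at SAH 1d.

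Of 21 other transporters and receptors of brain endothelium tested, 6 rose and none fell at SAH 1d, with a median of 0.015. Without SAH 1d-3, 7 of the 21 were called higher and 5 lower, so the absence of lower calls rested on that library. The subunits of the large neutral amino acid transporter rose together, Slc3a2 by 0.79 (148 ± 18.4 to 254 ± 49.4 CPM, SD, n = 6) and Slc7a5 by 0.59 (72.3 ± 4.35 to 109 ± 16.4 CPM, SD, n = 6). The monocarboxylate transporter Slc16a1 (MCT1) rose by 0.77, from 63.1 ± 11.3 to 108 ± 9.28 CPM, and its groups did not overlap, as held for 7.89% of all genes in that direction. The efflux pump Abcc4 rose by 0.49. Slc16a1, Slc7a5 and the cationic amino acid transporter Slc7a1 were lower at SAH 7d than at SAH 1d, as were 1.08% of all genes, with log2 fold changes of -0.67, -0.52 and -0.67 and no overlap between the groups, as held for 2.11% of all genes in that direction.

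Of 9 other caveola and vesicle genes tested, 5 rose and none fell at SAH 1d (median 0.30), and 6 were called higher without SAH 1d-3. Ehd2, which holds caveolae at the membrane, rose by 1.23, from 8.81 ± 2.72 to 20.6 ± 5.32 CPM (SD, n = 6) without overlap, Ehd4 by 0.75, the caveolin Cav2 by 0.74 and the coat protein Cavin1 by 0.65. Part of these sizes came from SAH 1d-3, without which they were 1.08, 0.39, 0.57 and 0.50, and each was still called in edgeR. Ehd4 had 85.9 CPM in SAH 1d-3 and 28.7 to 35.0 CPM in the other SAH 1d libraries. Cav1 itself was not called, as given above. None of the 9 was called at SAH 7d against sham or SAH 1d.

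The Wnt and barrier programme holds the signals that induce and keep the barrier. Of 20 such genes tested, 5 rose and none fell at SAH 1d, with a median of 0.13, and the numbers were 5 and 0 without SAH 1d-3. The ligand Wnt7b rose by 0.73 (34.4 ± 5.54 to 56.9 ± 14.0 CPM, SD, n = 6), the receptor Fzd6 by 0.74, the Wnt target Apcdd1 by 0.71 and the coreceptor partner Tspan12 by 0.60. Wnt7b and Apcdd1 were lower at SAH 7d than at SAH 1d, with log2 fold changes of -0.88 and -0.80.

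Of 11 endothelial activation genes tested, 7 rose at SAH 1d and the median was 2.08. Without SAH 1d-3, which held the highest value of several of these genes, the median was 1.19, with 7 called higher and 1 lower. Among them were the leukocyte adhesion molecule E-selectin (Sele) at 5.37 on the log2 scale, the tip cell gene Esm1 at 5.21 and P-selectin (Selp) at 4.16. Much of these sizes came from SAH 1d-3, without which they were 3.94, 3.02 and 1.41 and were still called in edgeR (adjusted p = 2.26e-05, 0.00247 and 0.0360). Sele had 0.199 to 0.606 CPM in sham, 57.0 CPM in SAH 1d-3 and 2.62 to 8.77 CPM in the other 5 SAH 1d libraries, without overlap. Esm1 had 24.9 CPM in SAH 1d-3 and 0.358 to 1.93 CPM in the other 5. Selp had 20.0 CPM in SAH 1d-3 and 0.140 to 1.26 CPM in the other 5, so that it overlapped sham at 0.138 to 0.265 CPM. None of the 11 was called at SAH 7d. Among markers of other cells, 7 of 8 neuron markers were lower at SAH 1d, with a summed level of 6669 to 10406 CPM in sham and 5369 to 6561 CPM in SAH 1d, and 4 of 7 choroid plexus markers tested were higher. The part of these shifts in the members' values was not tested.

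**Figure D5:**
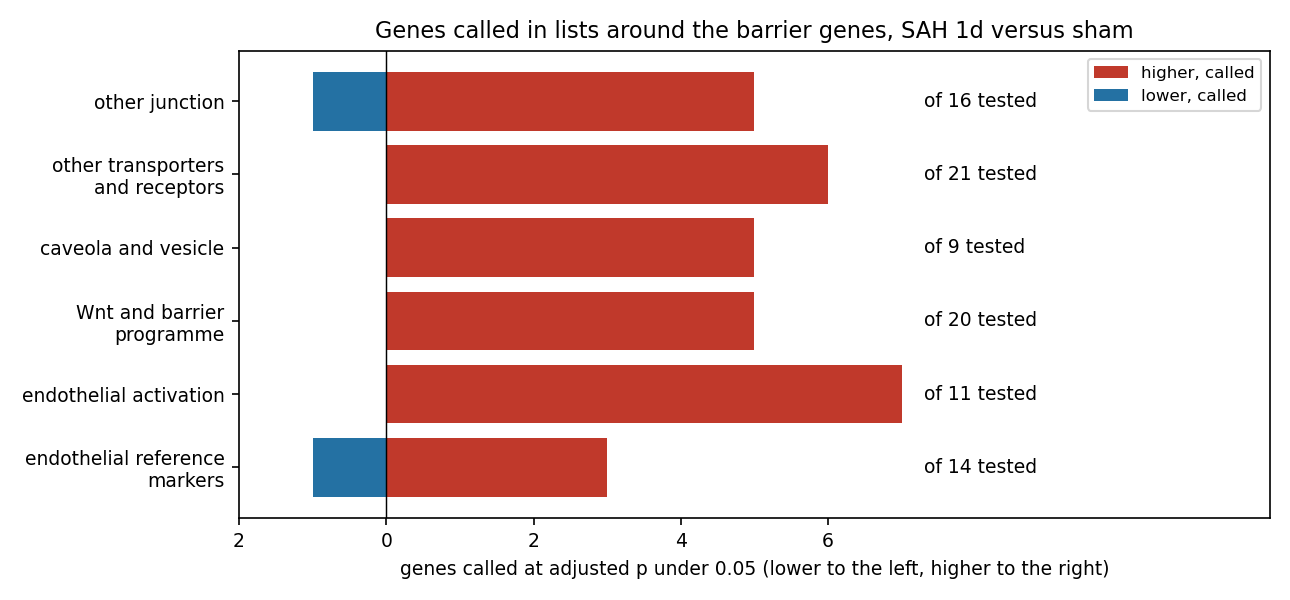
Number of genes called at an adjusted p under 0.05 in edgeR for SAH 1d versus sham in 6 lists, with higher genes to the right and lower genes to the left of 0. Beside each bar stands the number tested, from 9 for the caveola list to 21 for the other transporters and receptors.

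The members were also compared over the 18 libraries by Spearman's correlation of log2 CPM, as a description over libraries of 3 groups that share depth, tissue composition and group shifts. The closest pair was Ocln with Slco1a4 (rho 0.79), followed by Slc2a1 with Tjp1 (0.69), Abcb1a with Ocln (0.66) and Abcb1a with Slco1a4 (0.64). The order depended on the measure. By Pearson's correlation Abcb1a with Ocln had 0.76, Slc2a1 with Tjp1 0.64 and Ocln with Slco1a4 0.61. Mfsd2a had rho of -0.24 with Slc2a1 and -0.37 with Tjp1. Of the 8 members other than Cldn5, 7 were lowest among the sham libraries in sham-5, which also had the lowest endothelial sum (266 CPM), and Plvap was the exception. In sham-1, which had the highest endothelial sum of the group (448 CPM) and the lowest neuron sum, 6 of these 8 were highest and Plvap was lowest.

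Similar genes were picked as the highest of all other tested genes with a symbol, so their rho leans high by selection. No background was taken for it. The genes with the most similar pattern to Tjp1 were Podxl (rho 0.91), Mmrn2 (0.90), which encodes a matrix protein of vessels, and AC130391.3 (0.90). For Slc2a1 they were C12H7orf61 (0.90), the growth factor gene Fgf2 (0.89) and Tnfaip1 (0.87), and for Cav1 Adgra3 (0.89), Nfatc1 (0.88) and the integrin subunit gene Itga6 (0.87). Ocln and Slco1a4 shared Ggh (0.88 and 0.80) and Nxt2 (0.85 and 0.83), with Ints6l (0.85) and Abcd4 (0.79) as the third of each. Mfsd2a was nearest to Rin1 (0.86), Mcf2l (0.83) and the peptide hormone gene Apln (0.83), and Abcb1a to St5, Idh2 (each 0.87) and Eef2k (0.86). Plvap, with Lrtomt (0.82), Akain1 (0.81) and Lypd5 (0.80), and Cldn5, with Adgrg1 (0.79), Crabp1 (0.76) and Inpp4b (0.76), had lower values, Cldn5 with 11 libraries tied at 0. The correlation of a member with the endothelial markers had a median of 0.60 for Tjp1, 0.43 for Slc2a1, 0.35 for Cav1 and -0.32 for Mfsd2a over the 14 markers. For the other members the median lay between -0.17 (Ocln) and 0.15 (Abcb1a). Single markers went both ways, from -0.59 to 0.83 for Tjp1 and from -0.66 to 0.74 for Slc2a1. For Cav1 they ran from -0.13 to 0.64 and for Mfsd2a from -0.61 to 0.36.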

How the data were processed

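RNA of 18 rat cortices, 6 per group and 1 library per rat, was sequenced. The authors removed adapters and low quality reads and aligned reads to Rnor_6.0. The submitters' processing notes list fastp, HISAT2 and DESeq2 1.16.1, and the mouse build mm9, although the gene identifiers are of the rat. The counting program and the use of strand were not given in the sources at hand. The deposited counts are raw and whole. The deposited FPKM values were scaled by the authors to transcript length and mapped reads. How read pairs were counted is not stated.

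Libraries were grouped by the deposited descriptions. The SAH titles are other codes, so library numbers are those of the columns. Genes were kept by filterByExpr over 18 libraries, normalized by TMM and tested two-sided with edgeR 4.0.16 in R 4.3.3, with 12 libraries per comparison. A gene was called at an adjusted p under 0.05. The SE of a log2 fold change was derived as its size divided by the square root of edgeR's F statistic. CPM used TMM factors, and log2 CPM a prior count of 2. DESeq2 1.42.0, limma 3.58.1 (voom, and a trend on log2(FPKM + 1) or log2(FPKM + 0.1) with a mean FPKM of at least 0.5 or no filter), other filters (no minimum, 10 counts in every library), all 18 libraries in 1 fit, a replicate block, endothelial scaling and left-out libraries were alternatives. Python 3.11.15, pandas 2.3.3, scipy 1.17.1 and matplotlib 3.10.9 were used, and the tests were checked on simulated data.

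The members and lists were chosen with earlier results of these data known. Named were all members, up to 4 called genes per list and comparison with the largest changes, and the 3 genes most like each member by Spearman's rho, leaving out symbols that begin with LOC, AABR or NewGene. Ctnna1, Magi1, Vwf, Cd34, Gfap and genes named in the text on neighbours (Cdc45, Mcm2 to Mcm7, Slco1a2) and in the promoters were added after values were seen. Pecam1, Ackr1, Foxf2, Foxq1 and Cd93 were not analysed here. Some genes of the lists are counted but not reported by name here.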

Additional observations from a re-analysis of the deposited data

Results flagged for a closer look

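In 27 groups of 6 libraries (9 genes in 3 groups), the highest or lowest library was compared with the rest by Dixon's ratio, and 4 groups passed, where chance passes about 1 in 20. Cldn5 in SAH 7d-2 was at 7.10 CPM while the other 5 SAH 7d libraries were at 0, a tie that fixes the ratio at its maximum, so the chance rate bears only on the other 3. Abcb1a in SAH 7d-5 was at 120 CPM, and the nearest library was at 85.6 CPM. SAH 7d-5 is also the library with 8764 CPM of monocyte and macrophage markers, and their part in the Abcb1a value was not tested. Slco1a4 in sham-1 was at 218 CPM with the nearest at 137 CPM, and Plvap in the same library was at 0.666 CPM with the nearest at 1.52 CPM. Without sham-1 the log2 fold change of Slco1a4 at SAH 1d moved from -0.45 to -0.28 and that of Plvap from 0.31 to 0.15, and none of these was called in edgeR.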

How the results depend on the processing

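The calls of Slc2a1 and Tjp1 at SAH 1d held in 24 of 25 alternatives each and that of Mfsd2a in 23 of 25. Of the 25, 12 each left out a single library. In this comparison, leaving out SAH 1d-3 with SAH 7d-5 is the same fit as leaving out SAH 1d-3, so that fit is counted again. Slc2a1 and Tjp1 lost theirs under endothelial scaling, and Mfsd2a lost its call with limma on unfiltered log2(FPKM + 1) (adjusted p = 0.0606) and without SAH 1d-4 and SAH 1d-6, an alternative chosen after seeing the data. The cause was not tested. Ocln was called in 5 of 25, among them DESeq2 (adjusted p = 0.0390). With each library left out in turn the number of members called at SAH 1d ranged from 3 to 4, and at SAH 7d it was 0 in every alternative against sham and, apart from the one given next, against SAH 1d. With endothelial scaling, and with SAH 7d-5 left out together with SAH 1d-3, 2 members, Ocln and Mfsd2a, were higher at SAH 7d than at SAH 1d, against 0 with all libraries. All genes called in either direction then numbered 2752 of 18444 (14.9%), against 80 with all libraries, and the share called higher was not counted. The median rho of the named similar genes was 0.86, and 0.81 by Pearson.

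Replicate numbers are shared between groups, but no pair of SAH 1d with sham deviated together over 0.1 (r from -0.047 to 0.066). The range was -0.219 to 0.084 for SAH 7d with sham. For SAH 7d with SAH 1d it was -0.252 to 0.197, with 1 pair over 0.1. No pairing of rats by number was assumed, and a batch shared by a number was not tested. A replicate block called 4 members at SAH 1d, with Ocln added, and 0 in the other comparisons.

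Over all genes the calls ranged widely. SAH 1d versus sham had 4684 in edgeR, 5596 in DESeq2, 6502 with voom and 2462 with all 18 libraries in 1 fit. SAH 7d versus sham had 0 in edgeR and 459 in DESeq2. SAH 7d versus SAH 1d had 252 in edgeR, 29 with the replicate block, 1545 without SAH 7d-5 and 2718 with voom. Plvap and Cldn5 rest on few counts or few libraries, so small changes in them were not detectable at this depth.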
